A study of Mus musculus with 12 samples.

Results

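Cadherins and protocadherins were followed in the maturing mouse auditory nerve from birth to P21. A member was any gene whose probe sets carried a single symbol made of Cdh and a number, other than the endothelial gene Cdh5, or a symbol beginning with Pcdh. This gave 55 of the 18193 genes on the array, 20 Cdh and 35 Pcdh genes, covered by 99 probe sets. Each gene was read from its brightest probe set, the one with the highest mean over the 12 arrays, and 26 members had over 1. A further 6 probe sets that carried several symbols, with a cadherin or protocadherin gene among them, were left out. The tissue came from CBA/CaJ mice, an inbred strain with normal hearing, with no treatment or engineered allele. There were 12 mice, 2 for every stage, and the stages were P0 (the day of birth), P3, P7, P10, P14 and P21. Both cochleas of a mouse were combined, so an array is 1 mouse. Mice of both sexes were used, and the sex behind each array was not given in the sources used here. The bony shell, the lateral wall and most of the sensory epithelium were dissected away to leave the modiolus, the bony axis of the cochlea through which the nerve runs. The samples are therefore enriched for nerve but mixed.

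Classical cadherins are single-pass membrane proteins that bind like molecules on the neighbouring cell in the presence of calcium, and their tails hold catenins, which link them to actin. Type I members make strong adherens junctions, type II members give finer sorting of cells and contacts between neurons, and protocadherins mostly mediate recognition between neurites. The delta protocadherins are encoded by single genes, whereas the clustered ones lie in tandem on 1 chromosome and are chosen in combinations by each neuron. Cdh23 and Pcdh15 are unusual in forming the tip link, the thread that pulls open the transduction channel of hair cells.

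All values below are log2 RMA values, a normalized brightness with no absolute scale, so levels were compared between stages of 1 probe set and not between genes. Array medians lay between 6.70 and 6.79, and the arrays of a stage correlated at 0.991 to 0.9962. Mean log2 values of the markers of Schwann cells rose from 9.68 to 9.75 at P0 to 11.58 to 11.68 at P10, and those of spiral ganglion neurons from 9.92 to 10.07 at P0 to 11.23 to 11.26 at P10. Of 7 Schwann cell markers, 5 were called higher at P10 and 0 lower. The 10 neuron markers went both ways, with 5 called higher and 2 lower. Markers of other cells moved as well from P0 to P10. Called higher were 5 of 5 bone markers, whose mean log2 value went from 7.09 to 7.46 to 12.22 to 12.23, 6 of 7 oligodendrocyte markers (7.6 to 7.70 and 11.03 to 11.33), 6 of 6 macrophage markers (8.45 to 8.56 and 9.48 to 9.55), 3 of 6 astrocyte markers (8.53 to 8.76 and 9.79 to 10.03) and 2 of 8 fibroblast markers (12.07 to 12.09 and 13.40 to 13.48). Among all genes, 10.98% were called higher and 13.47% lower from P0 to P10. The part of these cells in the members' changes, such as the rise of Cdh9, was not tested. Fewer cells of a type and less RNA per cell cannot be told apart in such tissue. On the P21 arrays the 3′ probe set of Actb exceeded its 5′ probe set by 2.03 to 2.32 on the log2 scale, against 0.81 to 1.41 on the other arrays, so the RNA balance and the stage cannot be told apart at P21, and P10 is taken as the main end point.

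From P0 to P10 the members fell far more often than they rose. A gene was called higher or lower when the moderated test of limma gave an adjusted p under 0.05 over all 45037 probe sets and the fold was over 1.5. Of 55 members, 20 were called lower at P10 than at P0, where 10.1% of all probe sets were, and 2 were called higher, where 9.24% were. The median log2 change of the members was −0.29, against −0.04 over all genes, and 46 of the 55 had a negative change. Among all genes read from their brightest probe set, 13.47% were called lower and 10.98% higher. Over the 6 stages together, the F-test called 30 members, or 54.5%, where 38.3% of probe sets and 45.1% of genes were called. Of these 30, 18 were highest at P0, 4 at P3, 1 at P7, 1 at P10, 2 at P14 and 4 at P21. The shares of all genes with a negative change or with their highest mean at P0 were not counted. The 46 and the 18 are therefore given without a background. Both arrays of the lower stage lay under both of the higher stage in every member called between P0 and P10. With 2 arrays a stage the call itself makes this likely, so it adds no support to the calls.

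**Figure D1:**
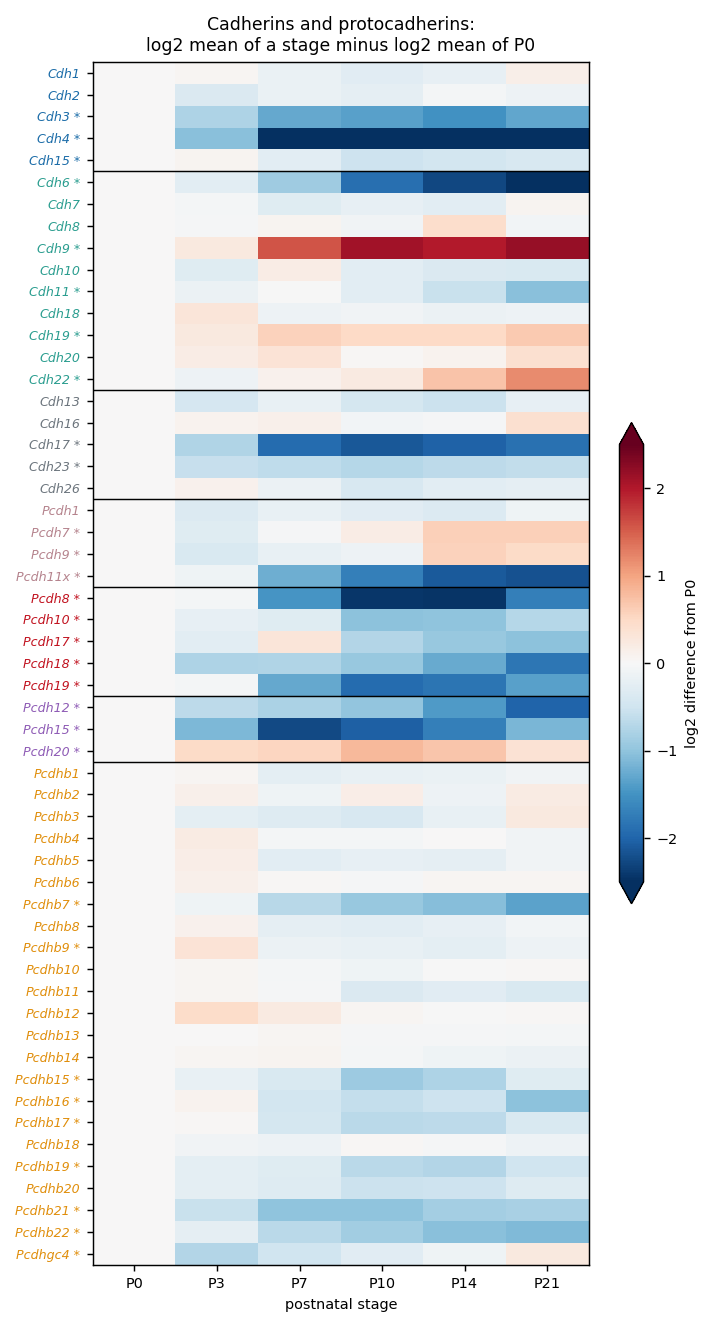
Mean log2 value of each of the 55 members at each stage minus its P0 mean, grouped by subfamily, with an asterisk on the 30 called over the 6 stages. Blue is lower and red higher than P0, and the colours end at a log2 difference of 2.5. Cdh4, Cdh6, Pcdh8 and Pcdh19 are among the darkest blue rows and Cdh9 is the darkest red.

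The type I classical cadherins split into genes that fell by P10 and genes that were not called there. Cdh4, or R-cadherin, which is found in developing brain and sensory tissue, had 10.99 and 11.08 at P0, 9.87 and 10.12 at P3, 8.0 and 8.57 at P7, 7.6 and 7.68 at P10, 8.27 and 8.13 at P14, and 7.95 and 8.74 at P21. Its mean went down at every step to P10, and no array from P3 onward reached either P0 array. Its fall to P10, 10.5-fold (log2 change −3.39 ± 0.24 SE, adjusted p = 1.04e-05), was the largest of the 55 members. A second Cdh4 probe set fell 7.36-fold (adjusted p = 8.22e-05), and the third lay at 3.57 to 3.80 on every array, in the dim range of the arrays. Cdh3, or P-cadherin, an epithelial and placental cadherin, had 7.96 and 8.13 at P0, 7.10 and 7.43 at P3 and 6.60 and 6.79 at P10. Its fall was 2.55-fold by P10 (adjusted p = 0.00019), and its arrays at P0 stood above all the others.

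Cdh1 and Cdh2 were not called in any comparison. Cdh1, or E-cadherin, which joins epithelial cells and also seals the loops of myelinating Schwann cells, lay between 12.11 and 12.60 on all 12 arrays (F-test adjusted p = 0.0571, highest over lowest stage 1.34-fold). Cdh2, or N-cadherin, the main cadherin of neurons and mesenchyme, lay between 11.84 and 12.31 (F-test adjusted p = 0.18, 1.29-fold). Their log2 changes to P10 were −0.28 ± 0.11 and −0.23 ± 0.12 (SE). Cdh1 lies beside Cdh3 on chromosome 8, and only Cdh3 of this pair was called. Cdh15, or M-cadherin, which is known from skeletal muscle and its satellite cells, had 6.47 and 6.62 at P0 and 6.03 and 6.03 at P10. It was called over the 6 stages (adjusted p = 0.00655, 1.5-fold between P3 and P10) but changed too little from P0 to P10 for the fold limit (1.43-fold, adjusted p = 0.00757). Of 8 skeletal muscle markers, 2 were called lower at P10, where 13.47% of all genes were. Their mean log2 value went from 5.64 to 6.0 at P0 to 5.17 to 5.52 at P10. The part of muscle RNA in the Cdh15 values was not tested.

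Markers of supporting cells and other epithelia moved the same way as Cdh3 and Cdh4. Of 10 such markers, 5 were called lower at P10, where 13.47% of all genes were. Their mean log2 value went from 10.69 to 10.97 at P0 to 9.16 to 9.58 at P10. Tecta, which encodes a protein of the tectorial membrane, was at 13.05 and 13.21 at P0 and at 6.26 and 6.93 at P10, and Krt8, a keratin of simple epithelia, fell 3.4-fold. Epcam, another epithelial adhesion gene, was not called (1.27-fold, adjusted p = 0.302). The part of this tissue in the falls of the cadherins was not tested.

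**Figure D2:**
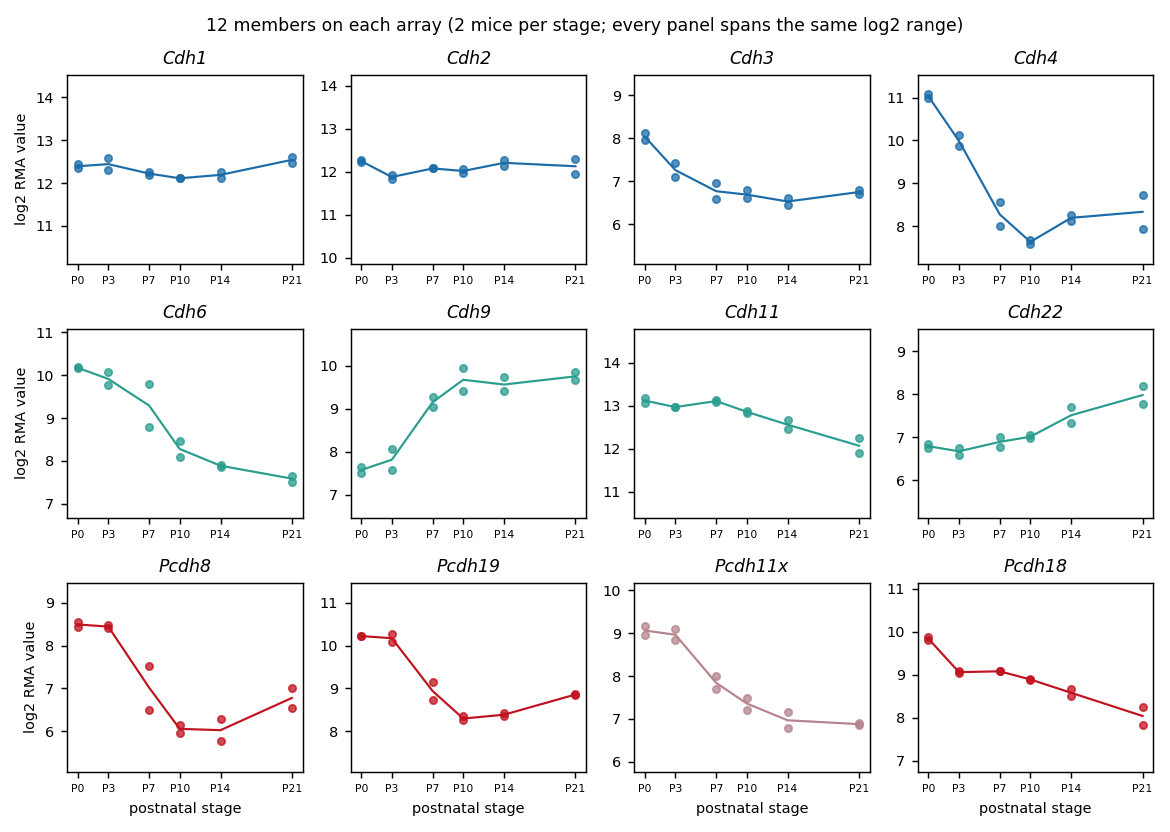
Log2 RMA values of 12 members on each array against postnatal stage, with dots for the 2 mice of a stage and lines through the stage means. Each panel spans the same log2 range around its own centre. Cdh1 and Cdh2 run level between 11.84 and 12.60, Cdh4 drops from about 11.03 to 7.64 at P10, and Cdh9 climbs while Cdh6 falls.

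The type II classical cadherins held both the largest rise among the members and one of the largest falls. Cdh9, which guides the choice of synaptic partners in the hippocampus, had 7.64 and 7.51 at P0, 7.57 and 8.06 at P3, 9.26 and 9.04 at P7, 9.94 and 9.41 at P10, 9.40 and 9.73 at P14 and 9.66 and 9.84 at P21. Every array from P7 onward stood above every array of P0 and P3. The rise was 4.29-fold by P10 (log2 change 2.10 ± 0.21 SE, adjusted p = 7.23e-05), of which 2.52-fold came between P3 and P7 (adjusted p = 0.00259). Cdh6, or K-cadherin, an embryonic cadherin of kidney and neural tissue, had 10.16 and 10.18 at P0, 9.76 and 10.06 at P3, 8.78 and 9.80 at P7, 8.10 and 8.46 at P10, 7.87 and 7.91 at P14 and 7.66 and 7.52 at P21. The mice at P7 were far apart, and from P10 onward all arrays lay below both of them. Cdh6 fell 3.71-fold by P10 (adjusted p = 0.000556) and 5.98-fold by P21 (adjusted p = 4.75e-05), and its second probe set fell 1.67-fold and 1.97-fold (adjusted p = 0.0121 and 0.00181).

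Cdh6 and Cdh9 follow each other among the members on chromosome 15, with Cdh10 next. Cdh10 itself was not called on its brightest probe set (8.87 and 8.55 at P0, 8.50 and 8.40 at P10, adjusted p = 0.257), but another, with 6.31 and 6.02 at P0 and 5.50 and 5.52 at P10, was called lower (1.57-fold, adjusted p = 0.0146). Because these neighbours moved in opposite directions, the 250 bases before their annotated starts are printed here from RefSeq, build GRCm38.p6, for Cdh6 at chr15:13173676-13173925 on the minus strand and for Cdh9 at chr15:16728665-16728914 on the plus strand, read 5′ to 3′ with the longest run of letters they share in capitals.
Cdh6: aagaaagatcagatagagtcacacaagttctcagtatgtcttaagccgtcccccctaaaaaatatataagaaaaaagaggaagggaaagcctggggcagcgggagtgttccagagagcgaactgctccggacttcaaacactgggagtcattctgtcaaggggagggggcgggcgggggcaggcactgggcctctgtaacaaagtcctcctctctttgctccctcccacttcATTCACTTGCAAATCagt
Cdh9: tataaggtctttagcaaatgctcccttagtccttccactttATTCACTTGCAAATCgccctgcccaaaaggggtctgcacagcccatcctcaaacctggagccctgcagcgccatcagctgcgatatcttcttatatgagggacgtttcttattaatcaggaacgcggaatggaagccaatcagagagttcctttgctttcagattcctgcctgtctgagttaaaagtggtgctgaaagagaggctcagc
The shared run is 15 bases long. It begins 18 bases before the start of Cdh6 and 209 bases before the start of Cdh9. Of 32851 promoters of this length, searched on both strands, 2 held it, and these were the promoters of Cdh6 and Cdh9. Among the 190 pairs of 20 members whose promoters were read, the median longest shared run was 8 bases and this pair had the longest. The pair was looked at after the values were known, and a shared run is a description of letters, not a site or a cause. The GC box, searched as GGGCGG on both strands, is held by 32.7% of all promoters and by 8 of the 20 members. It occurs in Cdh6 at 84 and 80 bases before the start, overlapping itself, and not in the Cdh9 window.

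Of the other type II genes, Cdh11, Cdh19 and Cdh22 were called at P21 but not at P10. Cdh11, the cadherin of mesenchyme and bone, had 13.17 and 13.07 at P0, 12.84 and 12.88 at P10, 12.66 and 12.47 at P14 and 12.26 and 11.89 at P21. It was not called at P10 (1.2-fold, adjusted p = 0.168) and was 2.06-fold lower at P21 (adjusted p = 0.000137), a fall that its second probe set also had (2.27-fold, adjusted p = 0.00223). The step of Cdh11 from P14 to P21 was not called (1.4-fold, adjusted p = 0.0695). In that step 1 of 5 bone markers and 1 of 8 fibroblast markers were called lower, where 1.12% of all genes were. Their mean log2 values went from 11.81 to 12.12 at P14 to 11.12 to 11.48 at P21 for bone. For fibroblasts they went from 13.37 to 13.48 to 13.03 to 13.06. From P0 to P21, the span of the Cdh11 call, 5 of 5 bone markers were called higher, where 15.3% of all genes were. Of the fibroblast markers, 2 were called higher and 3 lower. The part of these cells in the fall of Cdh11 was not tested. Cdh22, a brain cadherin, had 6.83 and 6.75 at P0, 6.99 and 7.04 at P10, 7.32 and 7.70 at P14 and 7.76 and 8.20 at P21. Its rise to P21 was 2.28-fold (adjusted p = 0.000336). Of 7 cerebellar granule neuron markers, 5 were called higher at P21 than at P0, where 15.3% of all genes were, and 0 lower. Their mean log2 value went from 8.12 to 8.36 at P10 to 9.91 to 10.11 at P14 and 8.84 to 10.3 at P21. The part of such tissue in the values of Cdh22, and of Pcdh9 below, was not tested. Cdh19, known from the Schwann cell lineage, had 9.42 and 8.92 at P0, 9.78 and 9.57 at P10 and 9.91 and 9.73 at P21. It stayed under the fold limit at P10 (1.42-fold, adjusted p = 0.0424) and was 1.57-fold higher at P21 (adjusted p = 0.00969), a call lost without the second P0 array (adjusted p = 0.0827) or the first P21 array (adjusted p = 0.0603). Cdh7, Cdh8, Cdh10, Cdh18 and Cdh20 were called in none of the comparisons, since their changes stayed under the fold limit. Some of these were past the adjusted p alone, such as Cdh18 from P3 to P7 (log2 change −0.44, adjusted p = 0.0184), which lay in the lowest 25% of every array, and Cdh10 over the 6 stages (F-test adjusted p = 0.0471).

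Of the 5 Cdh genes outside these types, Cdh17 and Cdh23 were called lower at P10, where 13.47% of all genes were. Cdh17, a cadherin of liver and intestine with a short tail, had 6.12 and 6.27 at P0, 5.65 and 5.22 at P3, 4.15 and 4.39 at P7 and 4.01 and 4.15 at P10, and stayed at 4.06 to 4.40 afterwards. From P7 on it lay in the lowest 25% of the array, where background may set the value, so its fall to P10 was at least 4.33-fold (adjusted p = 1.26e-05). Cdh13, a cadherin tied to the membrane by a lipid anchor, Cdh16, a kidney cadherin, and Cdh26 were not called in any comparison.

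The tip link genes of hair cells were both lower after birth, on their brightest probe sets. Cdh23 had 5.68 and 5.91 at P0, 5.02 and 5.43 at P3 and 5.06 and 5.29 at P7. It had 5.13 and 5.04 at P10, 5.21 and 5.07 at P14 and 5.19 and 5.19 at P21. From P3 on these values lay close to the limits of the dim range, which were 5.09 to 5.18 on those arrays. The first P3 and P7 arrays and the second P10 and P14 arrays were under their limits, but no stage was on both arrays. Background may set some of these values, so the size of the fall and the level later course are uncertain. The P0 arrays stood above the rest, and the fall to P10 was 1.64-fold (adjusted p = 0.00519), a call lost without the second P0 array (log2 change −0.60, adjusted p = 0.05). Its second probe set lay between 4.75 and 5.21 and was not called (log2 change −0.01, adjusted p = 0.943), and the mean of both fell short of the fold limit (log2 change −0.36). Pcdh15 had 9.43 and 9.42 at P0, 8.21 and 8.39 at P3, 6.94 and 7.39 at P7, 7.34 and 7.43 at P10, 7.52 and 7.92 at P14 and 8.86 and 7.70 at P21. It was lowest at P7 and the mice at P21 were far apart. The fall to P10 was 4.11-fold (adjusted p = 0.000809), and that to P21 was 2.21-fold (adjusted p = 0.0129) and lost without the second P21 array (log2 change −0.56, adjusted p = 0.066), without either P0 array (adjusted p = 0.0608 and 0.0549) and on those 4 arrays alone (adjusted p = 0.0507). Of its other probe sets, one fell 1.97-fold by P10 (adjusted p = 0.0256) and had 6.53 and 5.50 at P21 against 6.09 and 5.89 at P0, and the dimmest had a log2 change of 0.13 at P10 (adjusted p = 0.467).

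Of 9 partners of the tip link and hair bundle found on the array, 2 were called lower at P10 and 0 higher, against 13.47% and 10.98% of all genes. Myo7a, the motor at the upper tip link density, went from 7.66 and 7.66 to 6.75 and 6.83 (1.83-fold, adjusted p = 0.00572), and Adgrv1, a giant adhesion receptor of the ankle links, fell 1.87-fold (adjusted p = 0.0166). Ush1c, which encodes harmonin, had 8.04 and 8.36 at P0 and 8.42 and 8.41 at P10 (adjusted p = 0.231). Of 7 hair cell markers, 1 was called lower at P10, where 13.47% of all genes were, and 0 higher. Their median log2 change was 0.03, and their mean log2 value lay at 7.30 to 7.44 at P0 and 6.94 to 6.95 at P10. The called marker was Atoh1, the transcription factor that starts the hair cell and also the cerebellar granule cell fate, which fell from 8.76 and 8.89 to 5.29 and 5.22. Otof, needed for release at the hair cell synapse, was at 7.90 and 8.18 at P0 and 8.16 and 8.10 at P10. The part of residual hair cells in the tip link values was not tested.

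**Figure D3:**
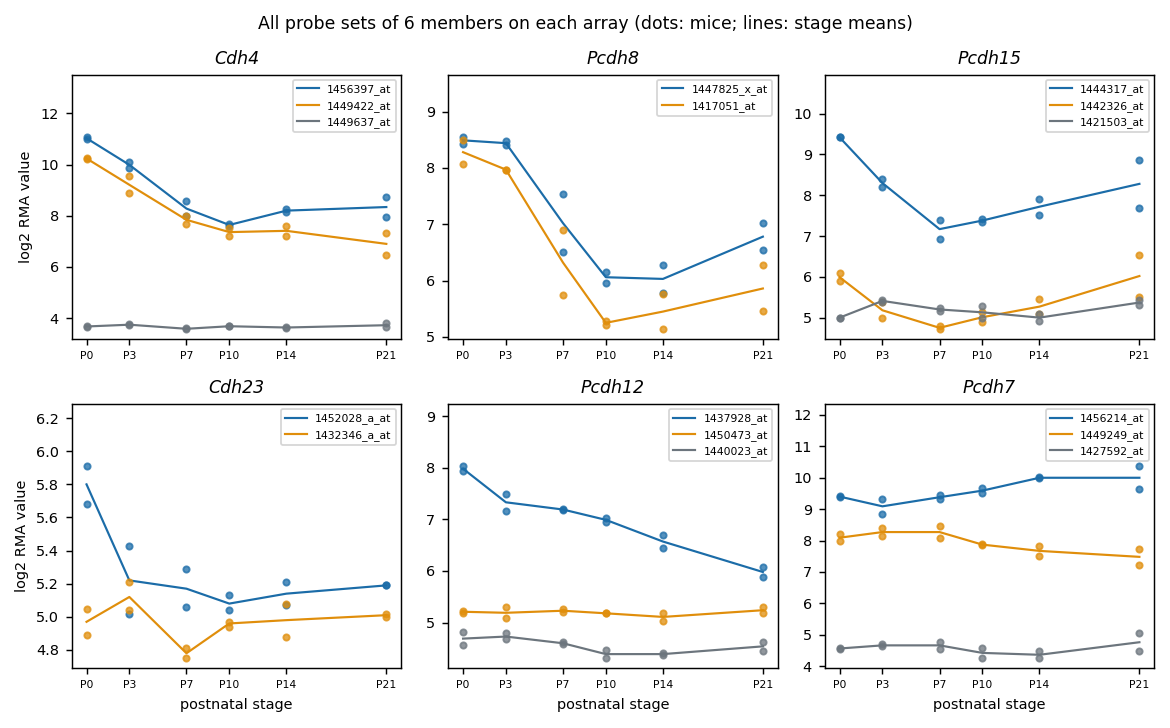
Log2 RMA values of all probe sets of Cdh4, Pcdh8, Pcdh15, Cdh23, Pcdh12 and Pcdh7 on each array against postnatal stage, with dots for mice and lines for stage means. The brighter probe sets of Cdh4 and Pcdh8 fall together. The dim probe sets of Cdh4, Cdh23 and Pcdh12 stay level, and the brighter pair of Pcdh7 part after P7.

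On their brightest probe sets, all 5 delta-2 protocadherins were called lower at P10, where 13.47% of all genes were, and at P21, where 16.9% were. The step with the largest fall in the stage means differed between them, but timing was not compared by a test. The median log2 change of the group was −1.04 at P10. Pcdh8, or arcadlin, which is induced by synaptic activity and controls the removal of N-cadherin from synapses, had 8.43 and 8.55 at P0, 8.40 and 8.47 at P3, 6.50 and 7.53 at P7, 6.16 and 5.96 at P10, 5.78 and 6.28 at P14 and 6.54 and 7.02 at P21. It held until P3 and then fell, 5.39-fold by P10 (adjusted p = 0.000233), and its second probe set fell 8.2-fold (adjusted p = 0.000235). The P21 arrays stood above those of P10, but this difference was not among the comparisons. Pcdh19, an X-linked gene mutated in a childhood epilepsy, had 10.23 and 10.22 at P0, 10.08 and 10.26 at P3, 8.73 and 9.15 at P7, 8.35 and 8.26 at P10, 8.42 and 8.37 at P14 and 8.85 and 8.87 at P21. Its fall was 3.78-fold by P10 (adjusted p = 9.15e-06), 2.35-fold of it between P3 and P7 (adjusted p = 0.000454), and its other 2 probe sets fell 2.67-fold and 1.98-fold.

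The stage means of the other delta-2 genes fell most in other steps. For Pcdh10 and Pcdh17 this was from P7 to P10, a step in which neither was called (adjusted p = 0.0872 and 0.0739). Pcdh18 had 9.87 and 9.82 at P0, 9.08 and 9.05 at P3, 9.09 and 9.08 at P7, 8.91 and 8.88 at P10, 8.66 and 8.50 at P14 and 8.24 and 7.83 at P21. It dropped in the first 3 days (1.72-fold, adjusted p = 0.0097), held until P10 and was 3.51-fold lower at P21 (adjusted p = 5.91e-06). Another of its probe sets was not called from P0 to P3 (log2 change −0.43, adjusted p = 0.253). Pcdh10, which shapes the growth of axon tracts in the forebrain, had 8.28 and 7.95 at P0, 7.85 and 7.77 at P7, 6.99 and 7.17 at P10 and 7.38 and 7.42 at P21. It fell 2.05-fold by P10 (adjusted p = 0.000577). Of its other probe sets, those with log2 changes of −1.0 and −0.7 were also called at P10, and those with −0.44, −0.32 and −0.23 were not. Its call at P21 (log2 change −0.71) was lost when its probe sets were averaged (−0.4) and without the first P0 array (−0.55). Pcdh17, which lines up growing axons of the amygdala, had 10.04 and 9.92 at P0, 10.06 and 10.50 at P7 and 8.97 and 9.54 at P10. Its fall to P10 was 1.65-fold (adjusted p = 0.0176). The call was lost without either P0 array (log2 change −0.67 and −0.79) or without the first P10 array (−0.44). Its second probe set was not called at P10 (log2 change −0.52, adjusted p = 0.149).

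Because all 3 were called lower at P10, the 250 bases before the annotated starts of Pcdh8, Pcdh18 and Pcdh19 are printed from RefSeq, build GRCm38.p6, 5′ to 3′. Pcdh8 is at chr14:79771313-79771562, Pcdh18 at chr3:49757317-49757566 and Pcdh19 at chrX:133688994-133689243, all on the minus strand. Capitals mark a TATA box in Pcdh8 and the longest run shared by Pcdh18 and Pcdh19.
Pcdh8: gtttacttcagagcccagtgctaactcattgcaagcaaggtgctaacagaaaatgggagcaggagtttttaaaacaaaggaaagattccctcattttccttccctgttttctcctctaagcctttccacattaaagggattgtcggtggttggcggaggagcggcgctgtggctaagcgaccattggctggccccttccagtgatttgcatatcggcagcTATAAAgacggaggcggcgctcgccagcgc
Pcdh18: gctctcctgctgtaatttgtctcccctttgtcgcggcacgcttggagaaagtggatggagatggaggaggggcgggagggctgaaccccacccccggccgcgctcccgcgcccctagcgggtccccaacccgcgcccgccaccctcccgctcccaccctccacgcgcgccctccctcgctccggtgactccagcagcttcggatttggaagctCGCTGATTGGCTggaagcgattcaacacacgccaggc
Pcdh19: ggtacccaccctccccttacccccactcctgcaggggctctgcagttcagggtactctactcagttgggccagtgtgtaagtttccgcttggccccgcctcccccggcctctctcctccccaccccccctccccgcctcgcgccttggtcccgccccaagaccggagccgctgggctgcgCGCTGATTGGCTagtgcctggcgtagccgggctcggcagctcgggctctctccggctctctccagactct
The TATA box, searched as TATAAA on both strands, lies 30 bases before the start of Pcdh8. It is found in 12.4% of all promoters and in 2 of the 20 members read. The run shared by Pcdh18 and Pcdh19 is 12 bases long, lies 37 and 70 bases before their starts, and is held by 56 of 32851 promoters (0.1705%). The E-box CACCTG, a sequence that Snail and Zeb repressors bind, was found in 17.2% of all promoters and in 2 of the 20 members, on either strand.

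The delta-1 protocadherins did not move together. Pcdh11x, an X-linked gene of the brain, had 8.95 and 9.17 at P0, 8.83 and 9.10 at P3, 8.0 and 7.69 at P7, 7.22 and 7.50 at P10, 6.78 and 7.17 at P14 and 6.85 and 6.91 at P21. It fell 3.25-fold by P10 (adjusted p = 8.07e-05) and 4.53-fold by P21 (adjusted p = 9.86e-06), and its second probe set fell 3.47-fold and 4.48-fold. Pcdh9 had 11.08 and 10.74 at P0, 10.58 and 10.46 at P3, 10.91 and 10.66 at P10, 11.51 and 11.45 at P14 and 11.33 and 11.45 at P21. It was called over the 6 stages (1.95-fold between P3 and P14, adjusted p = 0.00198) but not between P0 and P10 (adjusted p = 0.6). Pcdh7 had 9.41 and 9.40 at P0, 9.98 and 10.03 at P14 and 9.64 and 10.37 at P21. It was 1.52-fold higher at P21 (adjusted p = 0.0496), whereas another of its probe sets was 1.52-fold lower (adjusted p = 0.0299), so no direction can be given for the gene. Pcdh1 was not called.

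Pcdh12 and Pcdh20 ran in opposite directions. Pcdh12, a protocadherin of endothelial cells, had 7.94 and 8.03 at P0, 7.17 and 7.49 at P3, 7.18 and 7.20 at P7, 6.95 and 7.03 at P10, 6.70 and 6.45 at P14 and 6.08 and 5.89 at P21. Its fall was 1.99-fold by P10 (adjusted p = 0.00042) and 4-fold by P21 (adjusted p = 3.71e-06), while its other 2 probe sets, at 4.31 to 5.30 on all arrays, had log2 changes of −0.02 and −0.30 at P10 and were not called. Of 6 endothelial markers, 1 was called lower at P10, where 13.47% of all genes were, and 3 at P21, where 16.9% were. Their mean log2 value went from 9.09 to 9.24 at P0 to 8.85 on both arrays at P10 and 8.25 to 8.74 at P21. The part of endothelial RNA in the fall of Pcdh12 was not tested. Pcdh20 had 8.50 and 8.90 at P0, 9.29 and 9.07 at P3, 9.73 and 9.29 at P10 and 9.0 and 9.15 at P21. It was 1.75-fold higher at P10 (adjusted p = 0.00537), a call lost without the first P0 array (adjusted p = 0.0538) or the first P10 array (adjusted p = 0.0558).

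**Figure D4:**
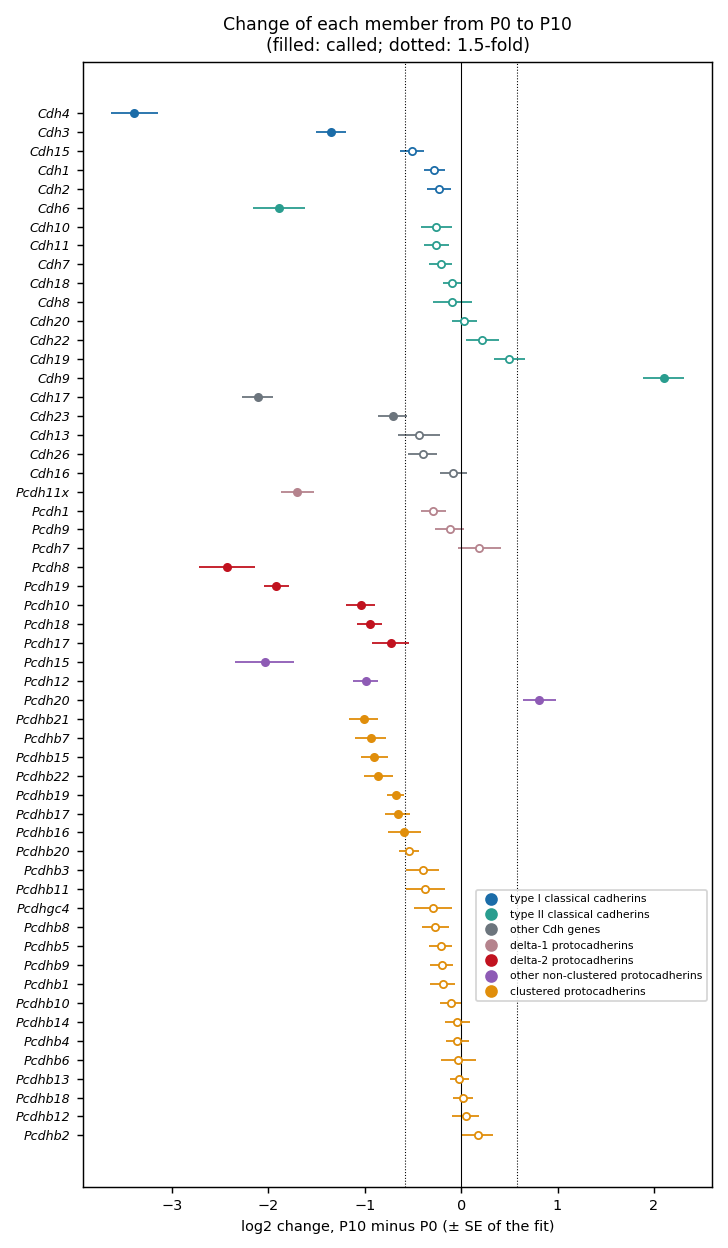
Log2 change from P0 to P10 of each of the 55 members with the standard error of the fit, coloured by subfamily and sorted within it. Filled points are called, and dotted lines mark a 1.5-fold change. The 20 filled points on the left include all 5 delta-2 protocadherins, and Cdh9 and Pcdh20 are the 2 on the right.

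Clustered protocadherins on the array were 22 beta genes and Pcdhgc4 of the gamma cluster. Of the 22 beta genes, 7 were called lower at P10, where 13.47% of all genes were, and 0 higher, where 10.98% were, and 5 lay in the lowest 25% of every array at all stages. The beta genes carry no introns in their coding part and are near-identical in stretches, so their probe sets can take up each other's RNA, and the single genes are uncertain. Pcdhb21 fell most by P10, from 8.69 and 8.48 at P0 to 7.67 and 7.47 (2.02-fold, adjusted p = 0.000673). Its other probe set was not called at P10 (log2 change −0.63, adjusted p = 0.112). The other probe sets of Pcdhb15 (−0.42) and Pcdhb16 (−0.44 and −0.44) were not called there either. Pcdhb7 had 8.99 and 9.05 at P0, 7.92 and 8.24 at P10 and 7.56 and 7.80 at P21. Its falls were 1.92-fold and 2.53-fold (adjusted p = 0.00163 and 0.000115). Pcdhb22 had 9.03 and 9.02 at P0, 8.32 and 8.01 at P10 and 8.06 and 7.79 at P21, with falls of 1.82-fold and 2.14-fold (adjusted p = 0.00159 and 0.000218).

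The called beta genes lay mostly towards one end of the cluster. Along chromosome 18, 1 of the 14 genes from Pcdhb1 to Pcdhb14 was called lower at P10 and 6 of the 8 from Pcdhb15 to Pcdhb22 were, with median log2 changes of −0.15 and −0.67. Of the genes in the lowest 25% throughout, 4 were in the first stretch and 1 in the second. This division was made after the values were seen and was not tested. Pcdhb9 and Pcdhb20 did not pass the fold limit at P10. Pcdhb9 had 9.49 and 9.49 at P0 and 9.22 and 9.37 at P10 (adjusted p = 0.271), and Pcdhb20 went from 9.47 and 9.49 to 8.94 and 8.94 (1.45-fold, adjusted p = 0.00258). Pcdhb16, with 9.07 and 8.82 at P0 and 8.36 and 8.35 at P10, only just passed (1.51-fold, adjusted p = 0.0276), and its call was lost without the first P0 array (adjusted p = 0.174) or either P10 array (adjusted p = 0.111 and 0.101). Pcdhgc4, an isoform that certain neurons need for survival, had 7.72 and 7.47 at P0, 6.64 and 7.06 at P3, 7.46 and 7.14 at P10 and 8.10 and 7.59 at P21. It was called over the 6 stages (adjusted p = 0.0182), with its lowest mean at P3 and its highest at P21.

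**Figure D5:**
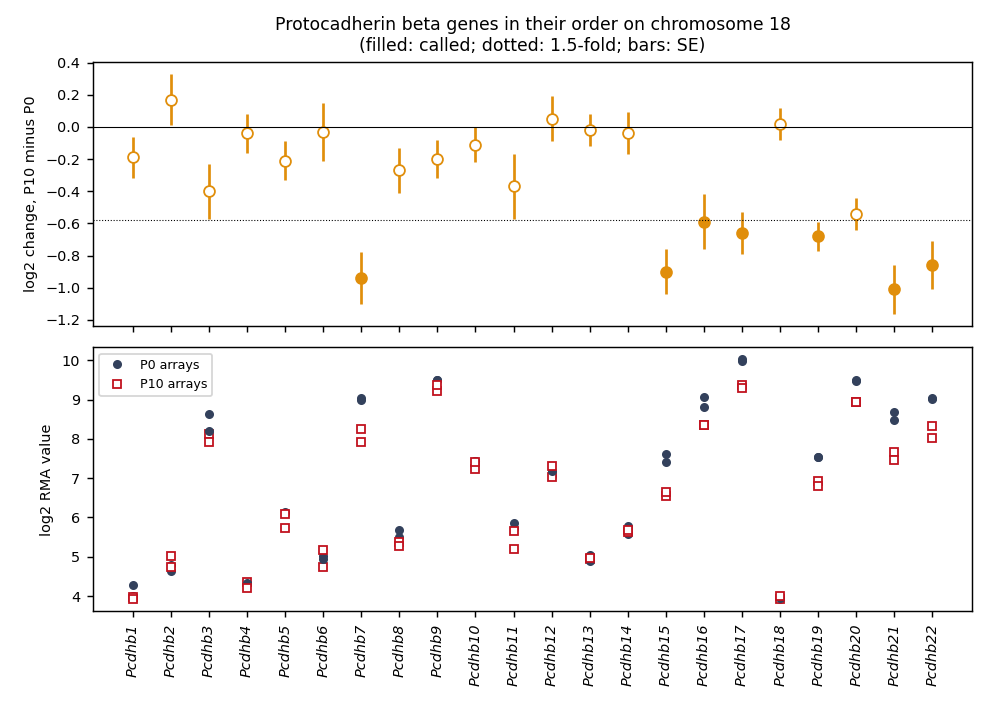
Protocadherin beta genes in their order on chromosome 18, with the log2 change from P0 to P10 and its standard error above and the log2 RMA values of both P0 and both P10 arrays below. Filled points are called lower. Of the 7 filled points, 6 lie from Pcdhb15 to Pcdhb22.

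Between neighbouring stages, the calls came in the first week, with 1 later exception. From P0 to P3, 0 members were called higher, where 0.981% of probe sets and 1.61% of genes were. Called lower were 5, where 2.8% and 3.78% were. These were Cdh3, Cdh4, Cdh17, Pcdh12 and Pcdh18. From P3 to P7, 7 were called lower (3.98% of probe sets and 5.36% of genes) and 1 higher (6% and 7.81%). The 7 were Cdh4, Cdh17, Pcdh8, Pcdh11x, Pcdh15, Pcdh19 and Pcdhb7, and Cdh9 was the one that rose. From P7 to P10, 0 were called in either direction, where 0.127% of probe sets (0.21% of genes) were lower and 0.104% (0.18%) higher. An unadjusted p under 0.05 in limma was found for 12 members. From P10 to P14, 0 were called, as were 0% of probe sets, with 8 members at an unadjusted p under 0.05. The share of all probe sets at that unadjusted limit was not counted, so the 12 and the 8 show no excess. From P14 to P21, 0 members were called higher, where 0.722% of probe sets and 0.96% of genes were. Pcdh12 alone was called lower (1.51-fold, adjusted p = 0.0465), where 1.73% and 1.12% were. Of the 12 arrays left out in turn, this call held only without either P3 array or the second P14 array. Neighbouring steps share the arrays of the stage between them. The early counts rest on few arrays: without the first or without the second P0 array the 5 calls from P0 to P3 became 0, without the first P3 array they became 2, and without the second P3 array the 1 higher call from P3 to P7 became 2, and without the first P7 array the 7 lower calls from P3 to P7 became 4 and the 0 lower calls from P7 to P10 became 4.

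At P21, 18 members were called lower than at P0, where 14.9% of probe sets and 16.9% of genes were. Called higher were 4, where 12.4% and 15.3% were. The 4 were Cdh9, Cdh19, Cdh22 and Pcdh7. This comparison shares its P0 arrays with that at P10, and it carries the RNA balance of the P21 arrays. With the Actb balance as a covariate, chosen after the data were seen, 0 members were called higher and 1 lower at P21, the one being Pcdh15, while the counts at P10 were 2 and 19. Under that fit the log2 change of Cdh6 at P21 moved from −2.58 to −3.63 with an adjusted p of 0.0897, and that of Cdh9 from 2.17 to 1.42 with an adjusted p of 0.385.

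Of 16 catenins and junction adaptors, the partners of cadherins at the membrane, 4 were called lower at P10, where 13.47% of all genes were, and 2 higher, where 10.98% were, so that the share called higher was near that of all genes, with a median log2 change of −0.36. Ctnnb1, or beta-catenin, lay between 13.81 and 14.02 on all 12 arrays (log2 change 0.03, adjusted p = 0.878), and Ctnna1, or alpha-catenin, between 12.72 and 13.12. Ajuba, an adaptor at junctions, went from 10.65 and 10.67 at P0 to 9.18 and 9.39 at P10 (2.59-fold, adjusted p = 7.71e-05). Arvcf, a relative of p120-catenin, went from 8.50 and 8.39 to 7.6 and 7.65 (1.77-fold, adjusted p = 0.000962). Ctnnal1, a relative of alpha-catenin, rose from 10.02 and 9.84 to 10.91 and 11.00 (2.03-fold, adjusted p = 0.000186). Nectin3, an adhesion molecule that works beside cadherins, was 4.45-fold lower at P21 (adjusted p = 5.46e-06) and under the fold limit at P10 (1.49-fold).

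Of 21 other genes of the cadherin superfamily, 6 were called lower at P10, where 13.47% of all genes were, and 0 higher, where 10.98% were, with a median log2 change of −0.15. Cdhr1, a photoreceptor cadherin also made by olfactory bulb neurons, went from 8.63 and 8.35 at P0 to 4.94 and 5.02 at P10. The P10 values are in the dim range of the arrays, so the fall was at least 11.4-fold (adjusted p = 9.12e-07). Celsr1, which sets planar polarity in the sensory epithelium, fell from 10.25 and 10.50 to 7.13 and 7.64 (7.94-fold, adjusted p = 4.11e-05). Dchs1 and Fat4, a ligand and receptor pair of giant cadherins, fell 3.02-fold and 1.71-fold (adjusted p = 1.89e-05 and 0.00355), and Clstn2, a calsyntenin of synapses, fell 1.86-fold (adjusted p = 0.0364). Of 6 transcriptional repressors of E-cadherin, Twist1 and Twist2 were called lower at P10 (1.96-fold and 3.01-fold, adjusted p = 0.0006 and 0.000121), while Snai1, Snai2, Zeb1 and Zeb2 were not called. Cdh1 had no called change beside them.

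On the other probe sets of the same genes the sign of the change mostly held and the call often did not. Of the 20 members called lower at P10, 15 had others, 25 probe sets in all. Of these 25, 23 had a change of the same sign, but only 11 were called lower, and 0 were called higher. The 2 that went the other way were the dimmest probe sets of Cdh4 and Pcdh15. The 2 members called higher had 1 other probe set between them, that of Pcdh20, with a log2 change of 0.52 (adjusted p = 0.11).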

How the data were processed

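Auditory nerve RNA of 12 CBA/CaJ mice was labelled by the 3′ IVT Express protocol and hybridised to Affymetrix mouse expression arrays. The deposited table holds log2 values that the authors made in Affymetrix Expression Console, for which RMA and MAS5 are named in the submitters' processing notes with no version. Near-equal quartiles on all arrays mark them as log2 RMA values, that is with background correction, quantile normalization and a summary for each probe set, so no further normalization was applied. The file gives no detection calls, batches or scan dates. It held 0 columns of other samples.

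The table has 45101 probe sets. Without its 64 controls, 45037 remained for testing. Gene names come from the platform annotation: 34945 probe sets have 1 symbol, 932 several and 9160 none. The 55 members, their grouping and the other gene lists were chosen with earlier results of these data known. Any member could be named. Of the other lists, up to 4 called genes by fold per comparison were named, and any other named gene was chosen after its values were seen.

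Stages were fitted by lmFit and eBayes of limma 3.58.1 (R 4.3.3), using the 12 arrays in 6 groups, with 6 residual degrees of freedom and Benjamini-Hochberg adjustment over the 45037 probe sets. A value in the lowest 25% of its array at both arrays of a stage was taken as possibly background. The fit was tested on simulated data. Arrays give no read depth, and 2 arrays per stage limit the precision. No replicate pair was identical, so all 12 arrays were kept. Replicate numbers were checked for pairing: deviations of same-numbered arrays correlated at −0.12 to 0.32, 6 of 15 correlations over 0.1, so the numbers were not taken to pair mice. Alternatives were the replicate block, an intensity trend, array weights, leaving out dim probe sets, centring arrays on 1 median, averaging a gene over its probe sets, the 4 arrays of a comparison alone, the methods' t-test, each other probe set and leaving out each array. Promoter sequences of 20 members, none on chromosome 18, were read from a RefSeq table of GRCm38.p6. Figures were drawn with matplotlib 3.10.9.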

Additional observations from a re-analysis of the deposited data

How the results depend on the processing

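With 2 arrays per stage and an RNA balance at P21 unlike that of the other stages, the counts at P10 are the firmest, and single calls near the limits are not. Leaving out 1 array at a time gave 18 to 20 members lower and 1 to 2 higher at P10, 16 to 19 lower and 2 to 4 higher at P21, 0 to 7 lower at P3 against P0, 4 to 9 lower and 1 to 2 higher at P7 against P3, 0 to 4 lower at P10 against P7, 0 to 2 lower and 0 to 1 higher at P21 against P14, and 26 to 31 over the 6 stages. The 1 higher at P10 came without the first P10 array, the 2 higher at P21 against P0 without the second P0 array, and from P14 to P21 the 2 lower came without the first P21 array and the 1 higher without the second. From P0 to P3 the lower members were 3 with genes averaged over their probe sets, 1 on those 4 arrays alone, and 3 by the methods' t-test unadjusted or 0 with Benjamini-Hochberg. That test with adjustment gave 0 lower and 0 higher at P10, and unadjusted 1 higher. From P3 to P7 averaging over probe sets gave 2 higher. From P7 to P10 the lower members were 1 with the intensity trend, 2 with array weights and 1 with averaging over probe sets. The 1 lower member from P14 to P21, Pcdh12, became 0 with the replicate block (adjusted p = 0.0561), the intensity trend, array weights, centring on 1 median, the 4 arrays alone and the Actb balance. Averaging over probe sets also ended this Pcdh12 call (log2 change −0.11, adjusted p = 0.526), and the 1 member then called lower was another. The same averaging ended the Pcdh12 calls from P0 to P3 (−0.21) and from P0 to P10 (−0.44). Because the numbers did not pair the mice, the replicate block is given here only: it also ended the P21 call of Pcdh7 (adjusted p = 0.0607) and left 30 members called over the 6 stages, and it changed no other call of a member. Both P21 arrays left out, an alternative chosen after seeing the data like the Actb balance, gave 7 lower from P0 to P3 and 28 over the 5 stages left, a count that is not like for like with the 30. With the Actb balance 0 members were higher and 1 lower at P21 against P0. Log2 changes took the other sign on other probe sets in Cdh23 at P21 (0.04), Cdh4 at P3, P10 and P21 against P0 (0.08, 0.01 and 0.05), Pcdh12 at P3 (0.04), at P21 against P14 (0.12 and 0.15) and at P21 against P0 (0.03), Pcdh15 at P10 (0.13) and P21 (0.03 and 0.38) and Pcdh7 at P21 (−0.60), and with the Actb balance in Pcdhb16 at P21 (0.08). The cause was not tested.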

Other observations

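Among the promoters of the 20 members read, 6 of the 190 pairs shared a run of 12 or more letters on the same strand. Beside Cdh6 with Cdh9 and Pcdh18 with Pcdh19, these included Cdh7 with Cdh22, 2 type II cadherins, which shared TTCCCCCCTAGT, a run held by 3 of 32851 promoters. Cdh7 was not called in any comparison, whereas Cdh22 was higher at P21. Cdh9 and Cdh18 shared AGCCAATCAGAGA, held by 31 promoters (0.0944%), and Cdh18 lay in the lowest 25% of every array. The pairs of Cdh6 with Cdh8 and of Cdh15 with Pcdh17 shared 13 letters each of GC-rich runs held by 111 and 108 promoters. These are descriptions of letters, chosen after the values of the genes were known.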
